A study of Drosophila melanogaster with 4 samples.

Results

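The genes described here are the prophenoloxidases and the proteins that switch them on or hold them back in Drosophila melanogaster. They are 10 genes out of 17773 listed, chosen by symbol: the prophenoloxidase genes PPO1, PPO2 and PPO3, the crystal cell transcription factor gene lz, the serine protease genes Hayan, Sp7 and MP1, and the serpin genes Spn27A, Spn28Dc and Spn77Ba. Melanization is the fly's wound and immune response in which a prophenoloxidase is cut to an active phenoloxidase and oxidizes phenols to quinones that polymerize into melanin. A cascade of secreted serine proteases makes the cut, and serpins, which trap proteases as suicide substrates, restrain it. PPO1 and PPO2 are made by crystal cells, blood cells that depend on the Runx factor Lozenge, and PPO3 is made by lamellocytes, a blood cell type of wasp-infested larvae.

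RNA was sequenced from ovarian tumors (tj-GAL4, tubulinGal80ts; UAS-aPKCΔN UAS-RasV12) and from control ovaries (tj-GAL4, tubulinGal80ts) of adult females, in 2 libraries of each, which the series description calls biological replicates. Flies of both genotypes spent 20 days at 29 °C, where the temperature-sensitive Gal80 no longer blocks the GAL4 driver of somatic follicle cells. The UAS transgenes supply an atypical protein kinase C without its N-terminal part and the oncogenic Ras form RasV12. Control tissue was dissected to follicles before yolk uptake and tumors were not, and a bacterial protease and a filter were used on both to enrich follicle epithelium, so dissection and genotype cannot be told apart.

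The libraries held 47512735 and 42739528 estimated counts in tumor 1 and tumor 2, and 41248098 and 50971937 in control 1 and control 2. The transgene loci followed the labels, with 54944 and 73836 counts of aPKC in tumor against 1910 and 2482 in control, and 102550 and 109225 of Ras85D in tumor against 676 and 215 in control. Follicle cell markers were present throughout, with a summed level of 1983 and 2163 CPM (library-scaled counts) in tumor and 1719 and 2096 in control over 8 genes. Single markers went both ways, with Fas3 and eya called higher and tj and Cad99C called lower by the test described below. Cad99C averaged 6.07 CPM in tumor and 201 CPM in control, and Fas3 534 and 201 CPM. Control 1 stood apart in late eggshell genes. yellow-g had 72.4 and 80.1 counts in tumor, against 9934 in control 1 and 7.56 in control 2, and yellow-g2 had 25 and 18 in tumor, against 5241 in control 1 and 28 in control 2 (both chosen after their values were seen). Control 2 stood apart in muscle markers, whose summed level was 442 CPM against 247 CPM in control 1.

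Each value below is the deposited estimated count of a gene unless another unit is named, and the comparison is edgeR's quasi-likelihood test with Benjamini-Hochberg adjustment over 9402 tested genes and a threshold of 0.05. A positive log2 fold change means higher in tumor, and its error is the standard error of the fit with 2 libraries per group. The targets on which reads were counted run from 2000 bases before each gene to 2000 bases after it, introns included, and every one of the 10 genes has exon sequence inside the target of at least 1 other gene. A locus sum, which adds the counts of all targets that hold an exon of the gene, is therefore given for each of the 10 genes, and for other named genes where it ends or turns a call.

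Of the 10 genes, 9 had enough counts to be tested, and Spn77Ba rose while Spn28Dc fell in tumor. Across the series 44.6% of the tested genes were called, 23.4% as higher and 21.2% as lower, so calls were no more frequent among these genes, at 2 of 9 (22.2%), than in the background. The normalized CPM of tumor and control did not overlap for 7 of the 9, against 79.6% of all tested genes. The median log2 fold change of the 9 genes was 0.40, against 0.02 over all tested genes. On locus sums, where 57.4% of all tested genes were called, 4 of the 9 were called higher, namely PPO1, PPO2, lz and Spn28Dc, against a background of 29.2%, and none was called lower, against a background of 28.3%. No gene was called in the same direction by its own count and by its locus sum at the threshold used. Over all 4191 genes called by their own counts, 69.6% were called in the same direction on locus sums and 9.59% in the opposite direction. The 2 calls here are too few to set against these shares.

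**Figure D1:**
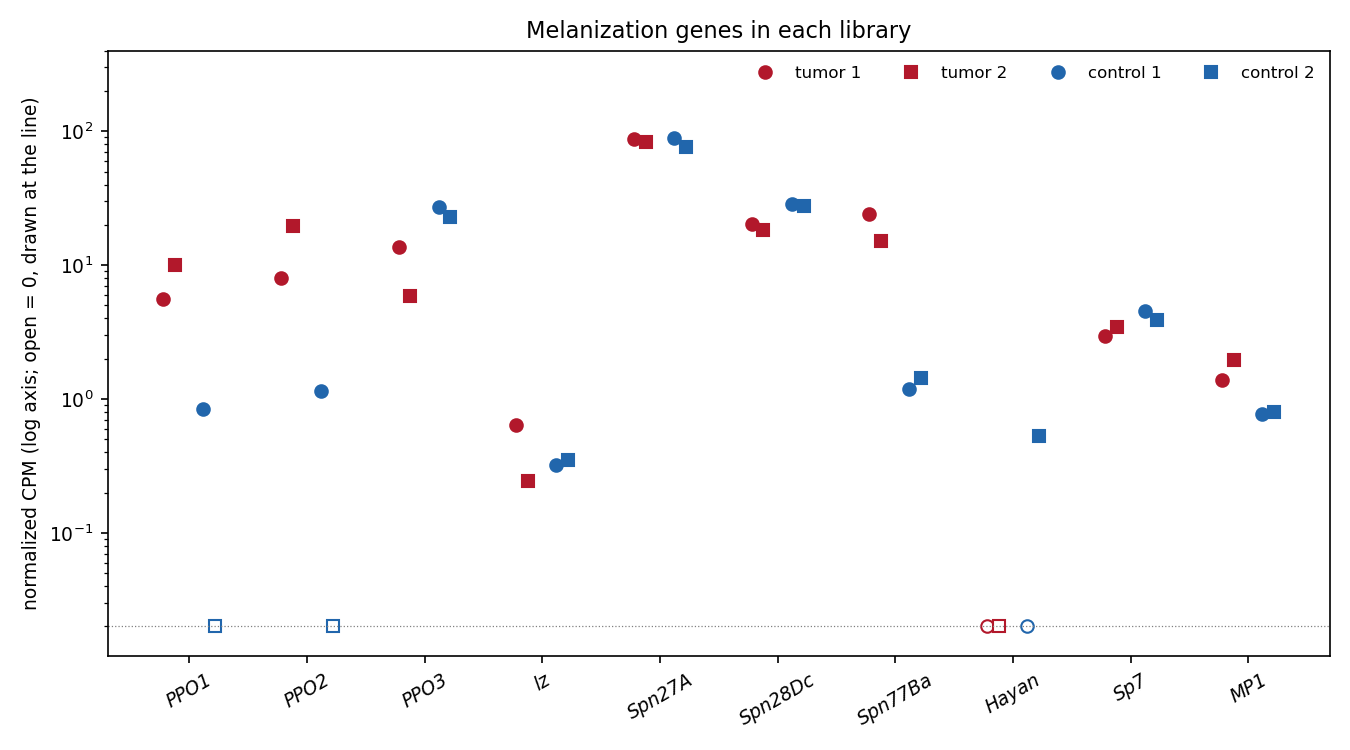
Normalized CPM of each of the 10 genes (log axis) in tumor libraries (red) and control libraries (blue), with circles for replicate 1, squares for replicate 2 and open symbols for values of 0 drawn at the dotted line. PPO1, PPO2 and Spn77Ba lie higher in both tumor libraries, PPO3 and Spn28Dc lie lower, and Hayan is above 0 in control 2 alone at this scale.

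The prophenoloxidases of crystal cells had their high values in tumor. PPO1 (FBgn0283437, BDGP6.54 chromosome 2R, 17887220 to 17889973, minus strand) had 268 and 455 counts in tumor, against 33.9 and 0 in control. PPO2 (FBgn0033367, chromosome 2R, 9042261 to 9044709, minus strand), a paralog encoded elsewhere on the same arm, had 387 and 878 counts in tumor, against 45.9 and 0 in control. For both genes both tumor libraries lay above both control libraries, and tumor 2 was higher than tumor 1. Control 2 was listed at exactly 0, which for counting error alone allows up to 3 counts, or 0.0615 normalized CPM at its depth.

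In normalized CPM, PPO1 averaged 7.83 ± 3.22 in tumor and 0.423 ± 0.598 in control (SD, n = 2 each), and PPO2 averaged 13.8 ± 8.13 in tumor and 0.572 ± 0.809 in control. The SD of the control values was larger than their mean. The log2 fold changes of PPO1 (4.22 ± 1.82, edgeR adjusted p = 0.13) and PPO2 (4.6 ± 1.89, edgeR adjusted p = 0.12) did not pass the threshold. With limma-voom, which called 47.1% of all tested genes (24.5% higher and 22.6% lower), both passed (adjusted p = 0.043 for PPO1 and 0.049 for PPO2), with fold changes that rest on the 0 in control 2. Without control 1 both passed (edgeR adjusted p = 0.025 and 0.029), with the 0 in control 2 as the sole control value. Without control 2 the log2 fold changes were 3.20 for PPO1 and 3.58 for PPO2, still higher in tumor but short of the threshold (edgeR adjusted p = 0.063 and 0.07).

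Neighbouring targets held few of the reads at these loci. The exons of PPO1 lie wholly inside the span of the potassium channel gene Elk, on the opposite strand, whose target had 9.1 and 5.67 counts in tumor and 1.13 and 6.71 in control. PPO1 thus held 96.7% and 98.8% of its locus counts in tumor, and 96.8% in control 1. In control 2 PPO1 held 0%, and the floor for its count there does not cover reads listed under Elk. Beside PPO2, the target of CG13743 had 22.6 and 27.0 counts in tumor and 8.3 and 0 in control, and Ance-4 was listed at 0 in all 4 libraries. The locus sums of PPO1 (277 and 461 in tumor, 35.0 and 6.71 in control) and PPO2 (410 and 905 in tumor, 54.2 and 0 in control) rose, by log2 fold changes of 4.0 ± 0.84 (edgeR adjusted p = 0.011) and 4.44 ± 1.48 (edgeR adjusted p = 0.048). No annotated transposable element lies in either target.

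PPO2 exceeded PPO1 in each library that held counts of both. Per kilobase of exon, PPO2 was 1.48 and 1.98 times PPO1 in tumor 1 and tumor 2, against 1.39 times in control 1. Their summed counts were 655 and 1333 in tumor, against 79.8 and 0 in control. In bulk tissue, more crystal cells and more RNA per cell cannot be told apart.

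PPO3 (FBgn0261363, chromosome 2R, 23064769 to 23067183, plus strand) had the opposite order. It had 657 and 267 counts in tumor, against 1086 and 1120 in control, so that both tumor libraries were below both controls and differed from each other by more than the controls did. The log2 fold change of -1.35 ± 0.45 did not pass (edgeR adjusted p = 0.072), and without tumor 1 it did (-2.09, edgeR adjusted p = 0.017). With limma-voom it passed as well (-1.44, adjusted p = 0.041). Reads at this locus were divided among 3 targets. The target of l(2)k09913, just downstream on the same strand, had 1374 and 1658 counts in tumor, against 105 and 566 in control, and that of CG9890, upstream, had 0 and 0 in tumor, against 366 and 46.6 in control. The first holds 80.8% and the other 61.4% of the exon bases of PPO3, which has no exon sequence of its own outside them. PPO3 held 32.3% and 13.9% of the locus counts in tumor, against 69.7% and 64.6% in control. The locus sum differed by 0.19 ± 0.14 (edgeR adjusted p = 0.28), the other way from the count of PPO3 itself.

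**Figure D2:**
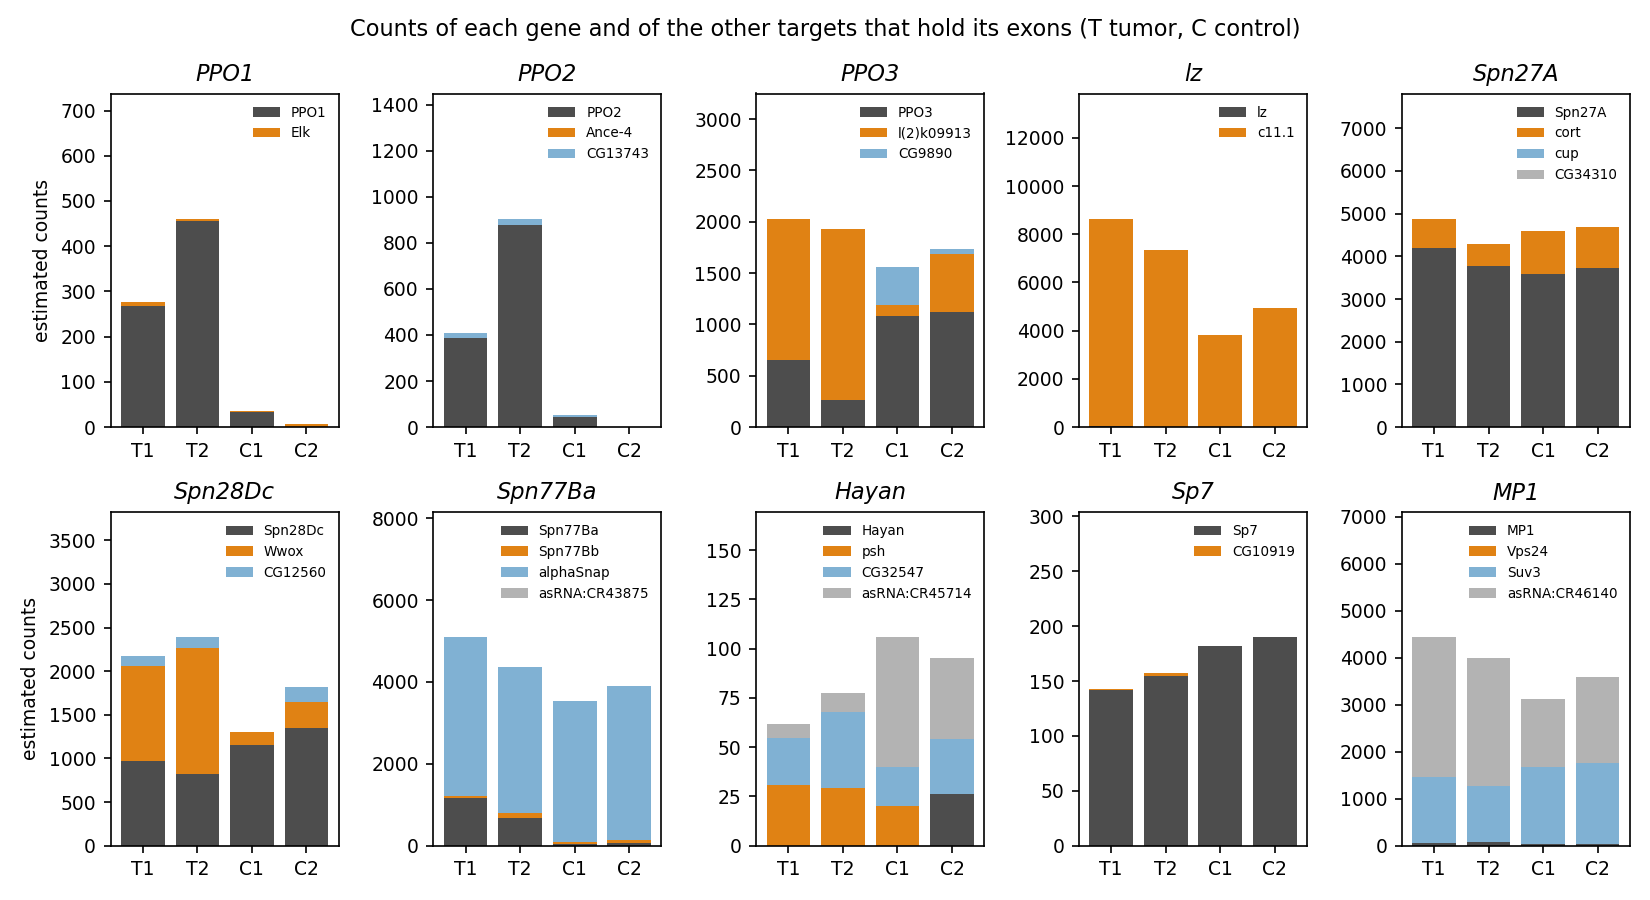
Estimated counts of each of the 10 genes (dark grey) stacked with those of the other targets that hold its exons (colours named in each panel), in tumor (T1, T2) and control (C1, C2) libraries. PPO1, PPO2 and Sp7 fill most of their bars, while lz, Spn77Ba and MP1 are a small part of theirs and PPO3 and Spn28Dc trade places with a neighbour.

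The transcription factor gene lz (FBgn0002576, chromosome X, 9284649 to 9303636, plus strand) did not follow PPO1 and PPO2. It had 30.6 and 11.2 counts in tumor, against 13.4 and 16.6 in control, so the groups overlapped and the tumor libraries lay on either side of both controls. The log2 fold change was 0.40 ± 0.75 (edgeR adjusted p = 0.69), and without tumor 1 it was -0.47 (edgeR adjusted p = 0.77). This is the gene least shared with others, with 97.5% of its 3468 exon bases outside any other target. Exons make up 15.1% of its target, so reads from its introns can enter the count. Its locus sum rose by 0.80 ± 0.08 (edgeR adjusted p = 0.0012), but lz supplied under 1% of it in every library (0.152% to 0.354%), and the rest came from c11.1, with 8618 and 7350 counts in tumor and 3793 and 4940 in control, whose target holds 88 exon bases of lz.

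Other genes used as crystal cell markers did not move with PPO1 and PPO2. Of 8 listed, 5 were tested, none rose and 2 fell, and CG10469, CG17109 and CG7860 were at 0 in every library. The zinc-finger gene peb, which follicle cells also use, fell by 5.88 ± 0.17 on the log2 scale (edgeR adjusted p = 0.0011), and fok fell by 1.00 ± 0.18 (edgeR adjusted p = 0.016), a call that ended without either control (adjusted p = 0.057 and 0.079). The summed level of these markers was 353 and 285 CPM in tumor and 836 and 987 CPM in control, and peb, fok, CG10467 and CG17065 supplied most of it. Among 7 genes of crystal cell fate, 5 were tested, of which 1 rose and 3 fell, with the call of ush ending without tumor 2 or either control. The gene klu fell furthest, with 88 and 62 counts in tumor against 3067 and 3607 in control. Its log2 fold change was -5.55 ± 0.21 (edgeR adjusted p = 0.0012, locus sum -5.55). The Notch ligand gene Ser had 179 and 797 counts in tumor against 2.0 and 0 in control (edgeR adjusted p = 0.015), a call that ended without either control (adjusted p = 0.054 and 0.067). The receptor gene N fell by 0.80 ± 0.11 (edgeR adjusted p = 0.009), and the GATA factor gene srp differed by -1.28 ± 0.38 on the log2 scale (edgeR adjusted p = 0.054; chosen after its values were seen).

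Plasmatocyte markers were higher beside PPO1 and PPO2. Of 8 such markers, which mark the phagocytic blood cells, 7 rose and none fell, and He was at 0 in control 2. On locus sums 7 were higher and 1, crq, was lower (-0.34, edgeR adjusted p = 0.029). The summed level was 688 and 934 CPM in tumor and 308 and 246 CPM in control. Most of the control sum was crq, at 276 and 219 CPM, against 242 and 232 CPM in tumor. Pxn had 265 and 534 CPM in tumor and 18.7 and 20.1 CPM in control. Its log2 fold change of 4.37 was 1.48 on its locus sum. NimC1, a phagocytic receptor gene, had 657 and 627 counts in tumor, against 10.3 and 8.81 in control. The scavenger receptor gene Sr-CI had 721 and 856 counts in tumor, against 51 and 36.7 in control. Of 6 lamellocyte markers, atilla was at 0 in every library. ItgaPS4 was not called by its own count (0.25, edgeR adjusted p = 0.49) and was called higher on its locus sum (0.65, edgeR adjusted p = 0.031). The genes cher, mys and Treh, which epithelia also express, rose, mys without a call on its locus sum (0.23, edgeR adjusted p = 0.059). The marker msn fell, with a call that ended whichever library was left out (adjusted p = 0.090 to 0.17) and a difference of 0.32 when scaled on ribosomal protein genes. The part of blood cell content in the values of the prophenoloxidases was not tested.

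Among the serpins, which inhibit the cascade, Spn77Ba showed the large difference. The protein is known to restrain melanization in the trachea, the fly's air tubes. Spn77Ba (FBgn0262057, chromosome 3L, 20317190 to 20320116, plus strand) had 1175 and 686 counts in tumor, against 47.6 and 70.5 in control, or 25.2 and 16.9 TPM, kallisto's length-scaled abundance, in tumor and 1.08 and 1.30 TPM in control. The groups were far apart, and the lower tumor library was well above the higher control. It rose by 3.91 ± 0.38 on the log2 scale (edgeR adjusted p = 0.0042). Leaving out any 1 library kept the call, with log2 fold changes of 3.52 to 4.21 and edgeR adjusted p of up to 0.034.

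The locus around Spn77Ba was held mostly by its upstream neighbour. alphaSnap, a gene for vesicle fusion, had 3886 and 3554 counts in tumor and 3452 and 3766 in control, which differed by -0.03 ± 0.09 on the log2 scale (edgeR adjusted p = 0.80). Its target holds 36.7% of the exon bases of Spn77Ba. The serpin gene Spn77Bb, just downstream, had 33.5 and 114.9 counts in tumor and 41.7 and 70.4 in control, and its target holds 48.6% of those bases. The target of asRNA:CR43875, an antisense RNA gene listed at 0 in every library, holds 64.1% of them. Spn77Ba has no exon sequence of its own outside these targets. Spn77Ba held 23.1% and 15.7% of the locus counts in tumor, against 1.34% and 1.8% in control, and the locus sum differed by 0.27 ± 0.10 (edgeR adjusted p = 0.067). Tracheal markers differed as well: of 7 tested, 4 rose and 1 fell, with a summed level of 97.7 and 141 CPM in tumor and 6.34 and 6.93 CPM in control, and none was at 0 in any library. The FGF receptor gene btl made up most of that sum, with 4064 and 5722 counts in tumor and 71.8 and 117 in control, whereas trh, the tracheal master regulator, had 7.31 and 7.75 in tumor and 85.3 and 89.3 in control. On locus sums neither trh (0.05, edgeR adjusted p = 0.74) nor uif (-0.17, edgeR adjusted p = 0.23) was called. The calls of trh and verm ended whichever library was left out, and that of uif ended without either tumor library or control 1. Their part in the Spn77Ba result was not tested.

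Spn28Dc, whose product limits phenoloxidase activity after injury, fell slightly. Spn28Dc (FBgn0031973, chromosome 2L, 8004548 to 8007210, minus strand) had 974 and 824 counts in tumor, against 1152 and 1349 in control. Both tumor libraries were lower, at -0.55 ± 0.15 on the log2 scale (edgeR adjusted p = 0.046), a difference that was 0.10 when the libraries were scaled on ribosomal protein genes. The call ended whichever library was left out (edgeR adjusted p = 0.072 to 0.19). The target of Wwox, an oxidoreductase gene directly downstream, holds 56.5% of its exon bases and rose to 1087 and 1446 counts in tumor, against 152 and 295 in control (log2 fold change 2.47 ± 0.36, edgeR adjusted p = 0.0093). The locus sum of Spn28Dc went the other way and rose by 0.49 ± 0.16 (edgeR adjusted p = 0.046).

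Spn27A encodes the hemolymph serpin that blocks the prophenoloxidase-activating protease, and in the female it also limits the dorsoventral protease cascade of the egg. It was the highest of the 10 genes in every library. Spn27A (FBgn0028990, chromosome 2L, 6671065 to 6673347, minus strand) had 4205 and 3767 counts in tumor, against 3597 and 3728 in control, and 85.4 ± 2.38 CPM in tumor and 82.9 ± 9.20 CPM in control (SD, n = 2 each). After normalization the groups overlapped, and the log2 fold change was 0.04 ± 0.11 (edgeR adjusted p = 0.78), against -0.10 ± 0.11 for the locus sum (edgeR adjusted p = 0.48). Scaled on ribosomal protein genes it was 0.69 and passed (edgeR adjusted p = 0.012). Its target holds 43.1% of the exon bases of cup, a translational repressor gene of the germline, and 46.4% of those of CG34310, which shares the span of cup. Spn27A lies wholly inside that span, and both cup and CG34310 were listed at 0 in all 4 libraries. The files therefore do not show how many of the Spn27A counts came from Spn27A transcripts.

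Levels per length put Spn27A and Spn28Dc above the other 8 genes on average in both tissues. In counts per kilobase of annotated exon, as CPM by library totals alone, Spn27A stood at 38.6 to 38.8 in tumor and 32.0 to 38.2 in control, and Spn28Dc came next at 10.8 to 11.4 in tumor and 14.8 to 15.6 in control. In tumor Spn77Ba (7.43 to 11.4), PPO2 (3.58 to 9.01), PPO3 (2.81 to 6.20) and PPO1 (2.41 to 4.56) followed, each overlapping the gene before it. Below them came Sp7 (1.26 to 1.53) and MP1 (0.928 to 1.35), which overlapped, and then lz and Hayan. In control PPO3 (9.86 to 11.8) came after Spn28Dc, followed by Sp7 (1.57 to 1.86), Spn77Ba (0.534 to 0.64) and MP1 (0.497 to 0.498), with no overlap between neighbours in this order. PPO2, PPO1, Hayan and lz were the lowest in control, with ranges that overlapped.

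None of the proteases of the cascade was called by edgeR with TMM scaling. Sp7 encodes a CLIP-domain protease needed for activation of prophenoloxidase. Sp7 (FBgn0037515, chromosome 3R, 7759786 to 7763947, plus strand) had 142 and 155 counts in tumor, against 182 and 190 in control. The tumor libraries were a little lower, without overlap, and the log2 fold change was -0.40 ± 0.36 (edgeR adjusted p = 0.42). It was 0.26 when scaled on ribosomal protein genes. With 71.5% of its exon bases outside other targets, Sp7 held 98.6% to 100% of its locus counts, and its locus sum differed by -0.38 ± 0.29 (edgeR adjusted p = 0.31). Annotated transposable elements cover 373 bases of its target.

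MP1, for another CLIP-domain protease that acts in melanization, had 67.2 and 88.2 counts in tumor, against 31.3 and 38.7 in control. The gene (FBgn0027930) lies on chromosome 3R from 4307908 to 4309835 on the plus strand. Annotated transposable elements cover 516 bases of its target, and their part in its counts was not tested. Both tumor libraries were higher, with a log2 fold change of 1.09 ± 0.50 that did not pass (edgeR adjusted p = 0.15). It passed when scaled on ribosomal protein genes (1.75, edgeR adjusted p = 0.043) and with limma on log2(TPM + 1) (0.75, adjusted p = 0.040). MP1 lies wholly inside the span of the gene Vps24, which was listed at 0 in all libraries, and held 1.0% to 2.21% of its locus counts. The rest was divided between asRNA:CR46140, an antisense RNA gene, and Suv3. asRNA:CR46140 had 2978 and 2727 counts in tumor and 1450 and 1818 in control (log2 fold change 0.74 ± 0.11, edgeR adjusted p = 0.010). Suv3, whose target holds 18.4% of the exon bases of MP1, had 1396 and 1179 counts in tumor and 1642 and 1726 in control. Its log2 fold change was -0.47 ± 0.15 (edgeR adjusted p = 0.069). The locus sum of MP1 differed by 0.26 ± 0.09 (edgeR adjusted p = 0.061).

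Hayan, the protease that activates the phenoloxidase cascade after wounding, was near 0. Hayan (FBgn0030925, chromosome X, 18479983 to 18483772, minus strand) had 2.89e-07 and 0.00888 counts in tumor, against 0 and 26.0 in control, and did not pass the filter on low counts. For counting error alone, values this near 0 allow up to 3 counts, or 0.0621 and 0.0667 normalized CPM in tumor 1 and tumor 2. Hayan has no exon sequence outside other targets, so its reads can be listed under those, which this floor does not cover. The targets that share its exons were also low. The antisense gene asRNA:CR45714, which holds 86.2% of its exon bases, had 7.22 and 9.67 counts in tumor and 65.8 and 41.3 in control, and psh, the neighbouring gene for a related protease of the Toll pathway, had 31.0 and 29.4 in tumor and 20.2 and 0 in control. Summed over the locus there were 61.7 and 77.3 counts in tumor and 106 and 95.3 in control.

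**Figure D3:**
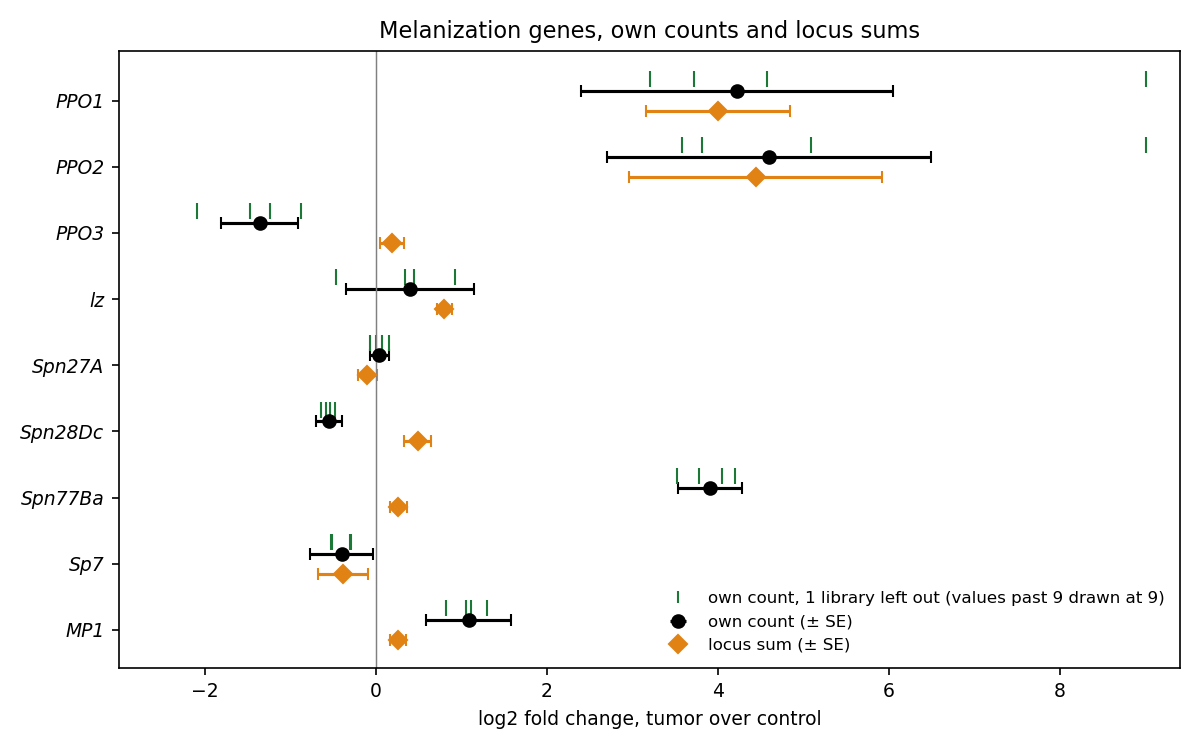
Log2 fold change of tumor over control for the 9 tested genes, from the gene's own count (black circles) and from its locus sum (orange diamonds), each with the standard error of the fit, and from the own count with 1 library left out (green ticks, those past 9 drawn at 9). Own count and locus sum are close for PPO1, PPO2 and Sp7 and lie on opposite sides of 0 for PPO3, Spn27A and Spn28Dc.

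The other serpin genes were higher or did not pass the test on their own counts. Of 24 listed outside the genes above, taken by the symbol Spn, 10 were tested, of which 5 rose and none fell. Their median log2 fold change was 0.96. On locus sums 6 were higher and 1 lower, with a median of 1.43. Spn88Ea, for an inhibitor of the Toll cascade, had 11355 and 8804 counts in tumor, against 512 and 454 in control, and rose by 4.29 ± 0.21 (edgeR adjusted p = 0.0016; locus sum 1.44). Spn42Da, for an inhibitor of furin proteases, rose by 1.42 ± 0.16 (edgeR adjusted p = 0.0052; locus sum 1.42), and Spn42Dd by 2.39 ± 0.32 (edgeR adjusted p = 0.0082; locus sum 1.81), with an adjusted p of 0.054 when control 1 was left out. Spn42De was called as well (1.59 ± 0.43, edgeR adjusted p = 0.044, locus sum 2.27). The adjacent genes nec, a serpin gene outside the 24, and Spn43Ad, the remaining call among them, were at 0 in both control libraries. nec, for the serpin that keeps the Toll cascade in check, had 297 and 169 counts in tumor. It was at least 50.2-fold higher, taking 3 counts per control library as the floor for counting error alone. Spn43Ad had 85.7 and 53.3 counts in tumor and was at least 15.9-fold higher by the same floor, a call that ended without tumor 1 (adjusted p = 0.068). Their shared locus sum differed by -0.12 (edgeR adjusted p = 0.72), and the floor does not cover reads listed under neighbouring targets.

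Genes of microbial recognition and of the Toll branch, which shares upstream proteases with melanization, gave 4 calls among 10 tested of 15 listed, all higher, with a median log2 fold change of 1.73. On locus sums 4 were higher and 2 lower, with a median of 0.06. The called genes were Spn88Ea, Spn42Dd, nec and the Toll ligand gene spz, which had 2666 and 2215 counts in tumor and 292 and 292 in control (2.98 ± 0.18, edgeR adjusted p = 0.0019; locus sum 2.81). They are 3 serpins and a ligand and include no protease. SPE, the protease that cuts Spätzle, had 44.2 and 67.7 counts in tumor and 13.0 and 12.5 in control (2.08 ± 0.61, edgeR adjusted p = 0.053), with a locus sum that fell by 2.04. PGRP-SA, a peptidoglycan receptor gene, had 965 and 8.88 counts in tumor and 0 in both controls, so 1 library carried nearly all of its counts (both chosen after their values were seen). Of 12 effector genes of the Toll pathway 3 were tested and 1 fell, the antifungal peptide gene Drs, with 567 and 252 counts in tumor and 1581 and 1822 in control (-2.14 ± 0.40, edgeR adjusted p = 0.018; locus sum -0.53). Its call ended without either control (adjusted p = 0.080 and 0.075).

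In the dorsoventral cascade of the ovary and egg, 4 of 6 listed genes were tested and 3 fell, of which ndl and gd encode proteases. ndl, for the modular protease that follicle cells secrete into the eggshell, had 35.4 and 49.3 counts in tumor, against 9282 and 9997 in control, and fell by 7.91 ± 0.23 on the log2 scale (edgeR adjusted p = 0.0011; locus sum -3.05). pip, for the sulfotransferase that sets the ventral side, fell by 2.29 ± 0.50 (edgeR adjusted p = 0.026), and gd, for the protease at the head of the cascade, fell by 3.40 ± 0.85 (edgeR adjusted p = 0.036). On locus sums pip fell by 0.84 (edgeR adjusted p = 0.0099) and gd was not called (-2.48, edgeR adjusted p = 0.096). The pip call ended whichever library was left out (adjusted p = 0.10 to 0.14), and the gd call ended without tumor 1 or either control (adjusted p of up to 0.14). The protease gene ea had 2947 and 2715 counts in tumor and 2603 and 3134 in control (-0.09 ± 0.09, edgeR adjusted p = 0.48), with a locus sum that fell by 0.47 (edgeR adjusted p = 0.037).

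Enzymes that supply or use melanin precursors changed one by one. Of 24 listed, 14 were tested, 5 rose and 1 fell (median log2 fold change 1.05), whereas on locus sums 2 rose and 5 fell (median -0.14). ple, for tyrosine hydroxylase, which makes DOPA, had 1157 and 813 counts in tumor, against 7 and 18 in control. It rose by 6.24 ± 0.52 (edgeR adjusted p = 0.0031), its locus sum rose by 6.24, and the call stood without any 1 library (edgeR adjusted p of up to 0.018). Ddc, for the next enzyme of the pathway, had 5.94 and 1.63 counts in tumor and 0 in both controls and was not tested. The multicopper oxidase gene Mco1 rose by 4.33 ± 0.89 (edgeR adjusted p = 0.022), a call that ended without tumor 2 or either control (adjusted p of up to 0.11) and on its locus sum (2.12, edgeR adjusted p = 0.20). yellow-b rose by 2.81 ± 0.30 (edgeR adjusted p = 0.005) with a locus sum of -0.08, and yellow-d fell by 0.49 ± 0.10 (edgeR adjusted p = 0.021), which was a difference of 0.15 when scaled on ribosomal protein genes and whose call ended without tumor 2 or either control (adjusted p = 0.072 to 0.089). yellow-f2, for a dopachrome conversion enzyme, was at 0 in every library, and its relative yellow-f was above 0 in control 1 alone, at 7.11 counts. The laccase gene stw, for cuticle tanning, had 1274 and 1311 counts in tumor and 778 and 1044 in control (0.45 ± 0.16, edgeR adjusted p = 0.083).

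**Figure D4:**
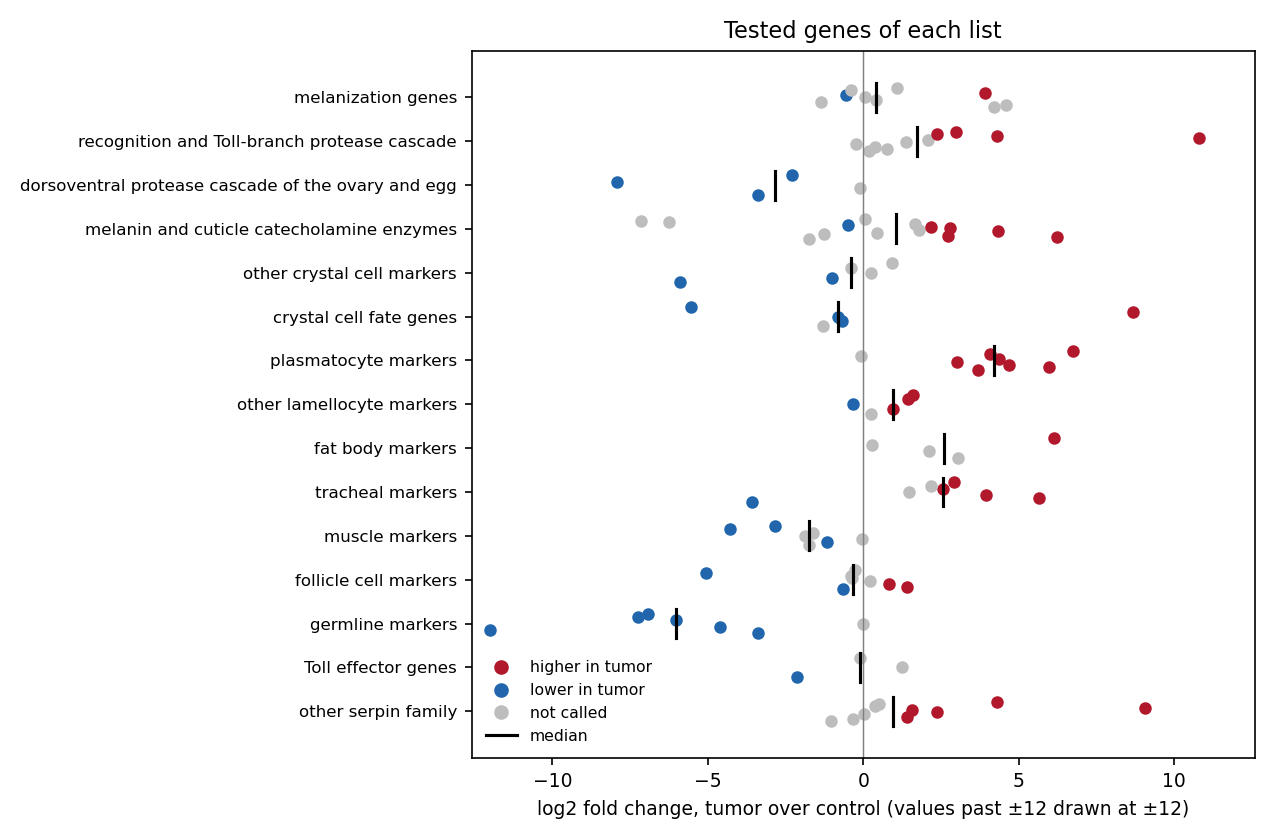
Log2 fold change of tumor over control for each tested gene of the 10 melanization genes and of 14 companion lists, with the list median as a black bar, red points called higher, blue points called lower and grey points not called. Plasmatocyte markers lie to the right of 0 apart from crq, and germline markers lie to the left apart from bgcn.

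Fat body cells, which make many hemolymph proteases and serpins, were checked with 8 markers. Of these 4 were tested, 1 rose and none fell, with a summed level of 22.0 and 24.6 CPM in tumor and 15.3 and 14.0 CPM in control. The called marker was Apoltp, a lipid transfer particle gene, which rose by 6.15 ± 0.75 (edgeR adjusted p = 0.0064), and Lsp1beta was at 0. Muscle markers had a summed level of 121 and 78.9 CPM in tumor and 247 and 442 CPM in control, with 3 of 7 tested lower (2 of them, Mlc2 and TpnC73F, not without control 2), and germline markers 50.8 and 65.0 CPM in tumor and 656 and 690 CPM in control, with 6 of 7 lower. The part of these cell types in the values of the melanization genes was not tested.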

How the data were processed

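All 4 libraries were used, with group and replicate taken from the titles. Reads were quantified with kallisto, per the submitters' processing notes. No source used here states its version, the genome build, the gene models or the strand setting. Estimated counts and TPM per target were deposited by the authors, per the file headers. Targets equalled the gene span in Ensembl release 115 (BDGP6.54) plus 4000 bases for 17551 of 17668 annotated genes (99.3%), and coordinates come from that annotation.

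After rounding, estimated counts went into edgeR 4.0.16 under R 4.3.3 (filterByExpr, TMM factors, glmQLFit, glmQLFTest on group alone, two-sided). SE is the log2 fold change over the square root of the F statistic. Normalized CPM divides counts by TMM-scaled library sizes. Exon kilobases are merged annotated exons. The floor for a 0 is 3 counts per library, for counting error only. P-values measure the spread between libraries.

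The 10 genes and the 14 companion lists were chosen with earlier results of these data known. All 10 genes are named, and in each list up to 4 called genes with the smallest adjusted p qualified; those bearing on the 10 are described. No set test was run. Alternatives were other scalings and filters, DESeq2 1.42.0, limma 3.58.1 (voom, and trend on log2(TPM + 1) and log2(TPM + 0.1)), a replicate block, locus sums and leaving out each library. Fits were tested on simulated counts. Pooled over simulations, edgeR and limma-voom kept false calls under the threshold. DESeq2 exceeded it with 2 libraries per group, so calls made by DESeq2 alone are given less weight. A false call limit was at first set for every tool. After DESeq2 exceeded it in the first simulation, a different limit, pooled over simulations, was applied to edgeR and limma-voom alone. The simulated libraries had fewer changed genes and less spread than the data, whose biological coefficient of variation was 0.36. They therefore do not give the share of false calls in these data. Joins and figures were made in Python 3.11.15 (pandas 2.3.3, matplotlib 3.10.9).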

Additional observations from a re-analysis of the deposited data

How the results depend on the processing

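Over all genes, calls were 2202 higher and 1989 lower; scaling on ribosomal protein genes gave 4425 and 902 and moved the median log2 fold change by 0.65 (-0.11 for upper-quartile factors, 0.20 to 0.24 on the TPM scale), log2(TPM + 1) gave 2972 and 1514, log2(TPM + 0.1) 3063 and 1519, and leaving out a library gave 1095 to 1495 higher and 760 to 1507 lower. With a replicate block 1533 were higher and 1305 lower. The deviations of same-numbered libraries correlated at -0.01, which gives no sign of pairing by number but cannot exclude it. DESeq2 called 2585 genes higher and 2479 lower, limma-voom 2302 and 2123, and locus sums 2742 and 2658. Library totals gave 2448 and 1657, and no filter 1935 and 1745. The counts of the 10 genes that follow are to be read against these totals. Of the 10 genes, 1 was called higher, against 3 under ribosomal protein scaling, 2 with DESeq2, 3 with limma-voom, 4 and 3 with log2(TPM + 1) and log2(TPM + 0.1), 4 on locus sums, and 1 to 3 with a library left out. The count called lower was 1, against 2 with DESeq2 and with limma-voom, and 0 under library totals, ribosomal protein scaling, no filter, the replicate block, both TPM scales and locus sums, and 0 to 1 with a library left out, where the gene without tumor 1 was PPO3 and not Spn28Dc. DESeq2, which exceeded its false call limit on simulated counts, called PPO1 (adjusted p = 0.030) and PPO3 (0.013), as limma-voom did (0.043 and 0.041).

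Spn77Ba was called under 15 of 16 alternatives, all but the locus sum (adjusted p = 0.067), PPO1 under 6 and PPO2 under 5. Values that changed sign were PPO3 (0.19) on locus sums, lz without tumor 1 (-0.47 to 0.93 with a library left out), Spn27A under upper-quartile factors (-0.068), on locus sums (-0.10) and without control 2 (-0.0695 to 0.15 with a library left out), Spn28Dc under ribosomal protein scaling (0.10) and on locus sums (0.49), and Sp7 under ribosomal protein scaling (0.26). Among the other named genes, yellow-d (0.15) and msn (0.32) did so under ribosomal protein scaling, and nec and Spn43Ad (both -0.12), trh (0.054), uif (-0.17) and yellow-b (-0.081) on locus sums, as did SPE (-2.04), l(2)k09913 (-0.76), alphaSnap (0.36), bgcn (0.77), psh (-0.062) and CG17065 (0.12), not called by their own counts; the cause was not tested. Hayan could not be tested with the filter, and without it had an adjusted p of 0.22. With the stricter filter lz could not be tested.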
